A study of Homo sapiens with 6 samples.

Results

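The NF-κB system was followed through 10 genes: the 5 subunit genes RELA, REL, RELB, NFKB1 and NFKB2, the IκB inhibitor genes NFKBIA, NFKBIB and NFKBIE, and the ubiquitin-editing regulators TNFAIP3 and BIRC3. They were found by gene symbol in the count files, and all 10 were among the 60609 genes listed there. All 10 also passed the minimum for testing, a normalized count averaging 5 or more over the libraries, and so were among the 19114 genes tested. Poly(A) RNA of K562, an established human leukaemia line with erythroid features, was sequenced with strand information in 6 libraries. In every library endogenous EP400, the scaffold and ATPase subunit of the TIP60 acetyltransferase complex, carried a homozygous C-terminal degradation tag. The cells had received 500 nM dTAGV-1, the degrader of the tagged protein, for 24 h. The WT group (3 libraries) expressed exogenous wild-type EP400 from the AAVS1 safe harbour locus. The Delta-TRRAP group (3 libraries) expressed from the same locus EP400 without the SANT and HD domains, which hold the TRRAP module. The comparison asks how steady-state mRNA of these genes differed when EP400 could not hold TRRAP. Each group was 1 isogenic clone, so clone and genotype cannot be told apart, and the 3 libraries of a group measure the spread between cultures of that clone.

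NF-κB proteins are dimers of 5 related subunits. RELA, REL and RELB carry transcription activation domains, whereas NFKB1 and NFKB2 encode precursors that are processed to short DNA-binding partners and, before processing, act as inhibitors themselves. In unstimulated cells most dimers are held in the cytoplasm by IκB proteins. Signals from cytokine receptors activate the IκB kinase complex, IκB is degraded, and the freed dimers bind κB motifs in DNA. Several of the genes so switched on, among them NFKBIA, TNFAIP3 and BIRC3, act back on the pathway. K562 cells come from chronic myeloid leukaemia, and the pathway is best known from lymphoid and myeloid cells, where it drives inflammatory and survival genes.

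κB motifs in the promoters of pathway genes are a known route of feedback, so the promoter windows are shown first. RefSeq promoters (GRCh38.p14, 250 bases before to 50 bases after each listed start) were available for 8 members, with 13 starts in all. RELB and NFKBIE had no entry. The 10-base κB motif, GGGRNNYYCC (R is A or G, Y is C or T, N is any base), was searched on both strands. It was found in promoters of 7 members and in 8 of the 13 windows (61.5%), against 11.3% of all 35116 promoters in the table and, counted by gene, 16.9% of the 11298 tested genes with a listed promoter. RELA had none. With 1 mismatch allowed, all 8 members matched, but so did 69.4% of all promoters. Each window below runs 5′ to 3′ on the gene's strand, covers the matches upstream of 1 listed start with 20 bases on either side, and has the matched bases in capitals.
REL, chr2:60881507-60881557 (+), match 47 bases before the start: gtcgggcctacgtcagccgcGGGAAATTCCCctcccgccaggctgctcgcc
NFKB1, chr4:102501290-102501339 (+), match 49 bases before the start: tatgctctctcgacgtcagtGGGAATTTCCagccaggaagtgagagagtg
NFKB2, chr10:102394451-102394529 (+), matches 107 and 78 bases before the start: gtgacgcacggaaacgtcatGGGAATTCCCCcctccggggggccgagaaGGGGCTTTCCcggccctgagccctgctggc
NFKBIA, chr14:35404801-35404850 (−), match 81 bases before the start: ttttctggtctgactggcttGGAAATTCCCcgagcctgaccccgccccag
NFKBIB, chr19:38899921-38899971 (+), match 28 bases before the start: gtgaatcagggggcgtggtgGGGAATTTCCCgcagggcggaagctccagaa
TNFAIP3, chr6:137867172-137867233 (+), matches 67 and 55 bases before the start: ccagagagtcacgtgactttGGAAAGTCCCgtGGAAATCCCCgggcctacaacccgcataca
BIRC3, chr11:102317265-102317378 (+), matches 199 and 135 bases before the start: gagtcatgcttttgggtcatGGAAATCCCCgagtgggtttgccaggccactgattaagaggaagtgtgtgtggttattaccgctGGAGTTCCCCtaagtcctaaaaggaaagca

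Capital runs of 11 bases hold 2 overlapping matches. A match is a description of the letters and was not tested for binding. Of the members with a match, REL, NFKB1, NFKBIA and NFKBIB were lower in Delta-TRRAP by the adjusted p, and BIRC3 was higher. NFKB2 and TNFAIP3 did not pass the test.

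The libraries held 35076835 to 42616061 counts. Counts were scaled between libraries by TMM, and a gene was called changed where the groups differed at least 2-fold and edgeR's quasi-likelihood test gave an adjusted p (Benjamini-Hochberg) no higher than 0.01. By that rule 22.5% of the 19114 tested genes were called, 16.2% higher and 6.34% lower in Delta-TRRAP. Without regard to fold, 58.6% of genes passed the adjusted p, and 28.9% passed it and were lower. For 71.1% of genes the 2 groups of libraries did not overlap. EP400 itself had normalized counts of 4951, 4924 and 5425 in WT and 5515, 6694 and 4350 in Delta-TRRAP (adjusted p 0.354, edgeR), but counts per gene sum the tagged and the exogenous transcript and cannot show the deleted domains. Libraries labelled as lymphoblast had no count for the B-cell marker MS4A1, while the summed erythroid and K562 markers ranged over 224235 to 225164 normalized counts in WT libraries and 123511 to 128819 in the others. That fall came mostly from TFRC, the transferrin receptor, at 193716 ± 1923 and 89385 ± 4322 normalized counts (SD, n = 3).

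Of the 10 NF-κB genes, 1 was called higher (BIRC3) and none was called lower, a share of 10% against 22.5% of all tested genes. Without regard to fold, 6 passed the adjusted p: BIRC3 higher, and REL, NFKB1, NFKBIA, NFKBIB and NFKBIE lower. The 5 lower genes were 50% of the members, against 28.9% of tested genes. The members' median log2 fold change was −0.12, with a range from −0.99 to 1.47, and the median of all tested genes was 0.006. WT and Delta-TRRAP libraries were fully separated for 9 members, all but TNFAIP3. The same held for 71.1% of tested genes.

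**Figure D1:**
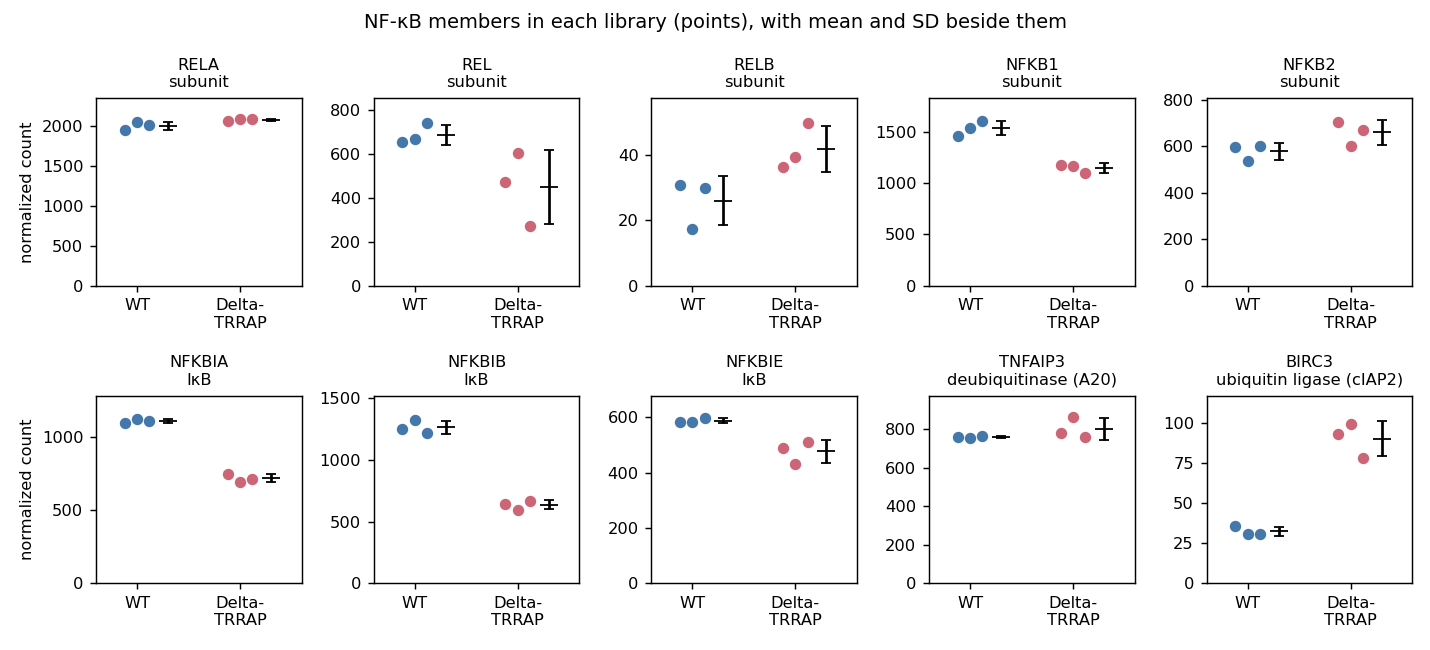
Normalized counts (y axis, linear from 0) of the 10 NF-κB genes in the 3 WT and 3 Delta-TRRAP libraries; points are libraries, and the bar beside them is the mean with the SD. NFKBIA, NFKBIB and NFKB1 sit lower in all 3 Delta-TRRAP libraries, BIRC3 sits higher, and the 3 Delta-TRRAP libraries of REL are spread from 270 to 604.

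Among the subunits with an activation domain, RELA had the highest counts and did not pass the test. RELA (ENSG00000173039.19, chr11:65653599-65663090, minus strand) had normalized counts of 1947, 2047 and 2006 in WT and 2063, 2089 and 2081 in Delta-TRRAP. Its log2 fold change was 0.05 ± 0.05 (SE; adjusted p 0.331, edgeR). The 95% interval of the difference ran from −0.05 to 0.16 on the log2 scale.

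REL (ENSG00000162924.14, chr2:60881491-60931612, plus strand) encodes c-Rel, best known from lymphocytes. Its normalized counts were 652, 664 and 738 in WT and 469, 604 and 270 in Delta-TRRAP. All 3 Delta-TRRAP libraries lay below the lowest WT library, but they spread from 270 to 604. The log2 fold change was −0.60 ± 0.18 (SE) and passed the test (adjusted p 0.00661, edgeR). With DESeq2 the log2 fold change was also −0.60, but the adjusted p was 0.108 and no longer passed. Without Delta-TRRAP replicate 3 the fall was −0.35 (adjusted p 0.003, edgeR).

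The Delta-TRRAP libraries also differed from each other by transcript length, most between replicate 3, the lowest for REL, and replicate 2, the highest. From replicate 2 to 3 REL, whose MANE Select transcript (the reference isoform) has 11108 bases, differed by −1.16 on the log2 scale. EP400 (12289 bases) differed by −0.62 and TRRAP (12675 bases) by −0.57. Among genes averaging 100 normalized counts or more, the median of the same difference was 0.13 for the 2316 genes with transcripts under 2 kb and −0.24 for the 422 genes of 10 kb or more. Against replicate 1, the same 422 genes had a median of −0.10 in replicate 3 and 0.14 in replicate 2, so both departed from it, in opposite directions. In WT the difference between replicates 3 and 2 ran from −0.06 for the shortest to 0.09 for the longest genes. Its part in the REL result was not tested. Of the other members, BIRC3 (6877 bases) differed by −0.35 and RELB (2258 bases) by 0.34 between these libraries, and the remaining 7 lay between −0.19 and 0.24. For REL, 5702 of the 11108 bases (51.3%) coincide in GENCODE release 44 with an exon of another gene on the same strand, ENSG00000267520. Counting in union mode discards reads that 2 genes share, so a REL count may come from the remaining 5406 bases alone.

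RELB (ENSG00000104856.14, chr19:45001461-45038192, plus strand), the activating subunit of the non-canonical branch, was near the lower end of what was measured. It had normalized counts of 30.7, 17.4 and 29.8 in WT and 36.2, 39.2 and 49.6 in Delta-TRRAP. Every Delta-TRRAP library was above every WT library. The log2 fold change of 0.68 ± 0.24 (SE) did not pass the test (adjusted p 0.02, edgeR). WT replicate 2 carried much of it, since without that library the value was 0.44 (adjusted p 0.108, edgeR).

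Of the precursor subunits, NFKB1 fell and NFKB2 did not pass the test. NFKB1 (ENSG00000109320.13, chr4:102501330-102617302, plus strand) encodes p105, the precursor of p50, the usual partner of RELA. Its normalized counts were 1461, 1540 and 1604 in WT and 1180, 1164 and 1095 in Delta-TRRAP. The groups were well separated, and the fall of −0.42 ± 0.06 (log2, SE) passed the test (adjusted p 7.76e-06, edgeR).

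NFKB2 (ENSG00000077150.20, chr10:102394110-102402524, plus strand) encodes p100, the precursor of p52, the usual partner of RELB. It had normalized counts of 598, 536 and 602 in WT and 707, 603 and 672 in Delta-TRRAP. The lowest Delta-TRRAP library and the highest WT library differed by about 1 count, and the log2 fold change of 0.19 ± 0.07 (SE) did not pass the test (adjusted p 0.0337, edgeR). Without Delta-TRRAP replicate 2 it was 0.25 and passed (adjusted p 0.00513, edgeR).

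All 3 classical IκB genes were lower in Delta-TRRAP. NFKBIA (ENSG00000100906.10, chr14:35401079-35404749, minus strand) encodes IκBα, the inhibitor that NF-κB itself resynthesizes after each activation. Its normalized counts were 1095, 1126 and 1112 in WT and 749, 693 and 717 in Delta-TRRAP. Both groups were tight and far apart, with a log2 fold change of −0.63 ± 0.06 (SE; adjusted p 1.03e-07, edgeR).

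NFKBIB (ENSG00000104825.17, chr19:38899700-38908893, plus strand) encodes IκBβ, which is replaced more slowly than IκBα. It had normalized counts of 1251, 1318 and 1213 in WT and 643, 593 and 667 in Delta-TRRAP. This was the largest fall among the members, −0.99 ± 0.06 (log2, SE; adjusted p 1.61e-09, edgeR). WT was 1.99-fold higher, just under the 2-fold rule, so NFKBIB was not called. Leaving out WT replicate 1, WT replicate 3, Delta-TRRAP replicate 1 or Delta-TRRAP replicate 3 brought it over that line, with log2 fold changes down to −1.03.

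NFKBIE (ENSG00000146232.16, chr6:44258166-44265788, minus strand) encodes IκBε. Its normalized counts were 585, 582 and 598 in WT and 491, 432 and 510 in Delta-TRRAP. The fall was smaller than for NFKBIA and NFKBIB, −0.30 ± 0.07 (log2, SE; adjusted p 0.00176, edgeR). It depended on the scaling: with library totals in place of TMM the median of all genes shifted by 0.162, and NFKBIE stood at −0.15 (adjusted p 0.0869, edgeR). NFKB1, NFKBIA and NFKBIB passed the adjusted p in the same direction in all 15 alternatives run for each.

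The ubiquitin-editing regulators differed from each other. TNFAIP3 (ENSG00000118503.15, chr6:137867214-137883314, plus strand) encodes A20, which removes and adds ubiquitin chains on signalling proteins and so ends NF-κB signalling. It had normalized counts of 759, 753 and 762 in WT and 777, 862 and 757 in Delta-TRRAP. The groups overlapped, and the log2 fold change of 0.08 ± 0.06 (SE), with a 95% interval from −0.06 to 0.21, did not pass the test (adjusted p 0.296, edgeR).

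BIRC3 (ENSG00000023445.14, chr11:102317484-102339403, plus strand) encodes cIAP2, a ubiquitin ligase of the TNF receptor complex that favours survival. Its normalized counts were 35.9, 30.9 and 30.8 in WT and 92.9, 99.3 and 78.2 in Delta-TRRAP, from raw counts of 35, 32 and 30 and of 95, 104 and 74. Every Delta-TRRAP library was more than 2-fold above every WT library. The gene rose 2.78-fold, by 1.47 ± 0.17 on the log2 scale (SE; adjusted p 1.61e-06, edgeR). It stayed called in all 15 alternatives, between 1.40 and 1.63. The related ligase BIRC2, which shares the receptor complex, had 4873 ± 287 normalized counts in WT and 4977 ± 119 in Delta-TRRAP (SD, n = 3; log2 fold change 0.03 ± 0.05 SE, adjusted p 0.627, edgeR).

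**Figure D2:**
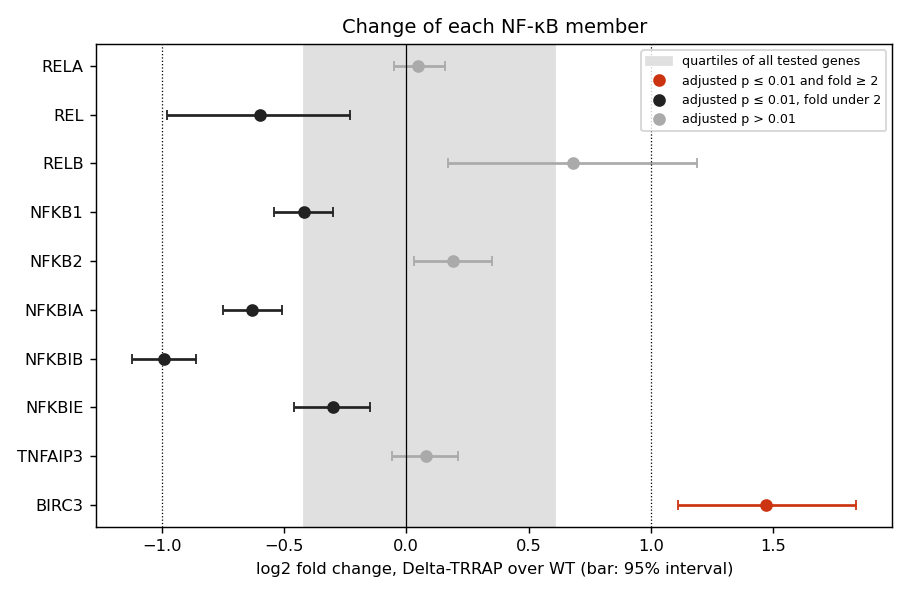
Log2 fold change of each NF-κB gene, Delta-TRRAP over WT (x axis), with its 95% interval; the grey band spans the quartiles of all tested genes, −0.42 to 0.61, and dotted lines mark 2-fold. NFKBIB touches the lower line at −0.99, BIRC3 lies beyond the upper one at 1.47, and RELA, NFKB2 and TNFAIP3 lie near 0.

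Per kilobase of MANE Select transcript, the order of the genes was led by NFKBIB, RELA and NFKBIA in WT. Levels in WT were 1058 ± 44.3 normalized counts per kb for NFKBIB, 795 ± 19.8 for RELA and 712 ± 9.80 for NFKBIA (SD, n = 3). NFKB1 followed at 379 ± 17.7, NFKBIE at 251 ± 3.80, NFKB2 at 192 ± 12.2 and TNFAIP3 at 162 ± 0.916. REL, at 61.6 ± 4.22, RELB, at 11.5 ± 3.30, and BIRC3, at 4.73 ± 0.422, closed the order, so that the only member called was the one with the lowest level per kb.

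In Delta-TRRAP the first places changed. RELA led at 825 ± 5.28 per kb, ahead of NFKBIB at 532 ± 31.8 and NFKBIA at 462 ± 17.9 (SD, n = 3). NFKB1 stood at 283 ± 11.1. NFKB2, at 219 ± 17.6, and NFKBIE, at 204 ± 17.4, were closer to each other than their SDs. TNFAIP3 at 171 ± 12, REL at 40.3 ± 15.1, RELB at 18.4 ± 3.13 and BIRC3 at 13.1 ± 1.58 kept their places. The order depends on which transcript is assumed. Over the union of all annotated exons NFKB1 stood at 97.9 per kb in WT, below TNFAIP3 at 118 and NFKB2 at 104. Over its 5406 unshared bases REL reached 127 ± 8.66 per kb in WT (SD, n = 3), still below TNFAIP3. These levels are of mRNA, and protein was not measured. As whole cultures were sequenced, fewer cells expressing a gene and less RNA per cell cannot be told apart.

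Ratios between members inside 1 library do not depend on scaling between libraries. For NFKBIB over RELA the ratios of counts were 0.642, 0.644 and 0.605 in WT and 0.312, 0.284 and 0.321 in Delta-TRRAP, a log2 difference of −1.05. For NFKBIA over RELA they were 0.562, 0.550 and 0.554 against 0.363, 0.332 and 0.345, a log2 difference of −0.68. For NFKBIE over RELA they were 0.300, 0.284 and 0.298 against 0.238, 0.207 and 0.245, a log2 difference of −0.36. All 3 inhibitors were thus lower relative to RELA in every Delta-TRRAP library than in any WT library. NFKB2 over NFKB1 moved the other way, from 0.410, 0.348 and 0.375 in WT to 0.599, 0.518 and 0.613 in Delta-TRRAP, a log2 difference of 0.61. REL over RELA was 0.335, 0.324 and 0.368 against 0.227, 0.289 and 0.130, and RELB over RELA was 0.0158, 0.00848 and 0.0148 against 0.0175, 0.0187 and 0.0239. None of the 6 ratios overlapped between the groups, and 71.1% of all tested genes, taken singly, did not overlap either. All ratios but NFKB2 over NFKB1 share RELA, so the 6 are not separate observations. A two-sided exact permutation test gave p = 0.1 for each (adjusted p 0.1 over the 6), the smallest p that 3 libraries against 3 allow.

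**Figure D3:**
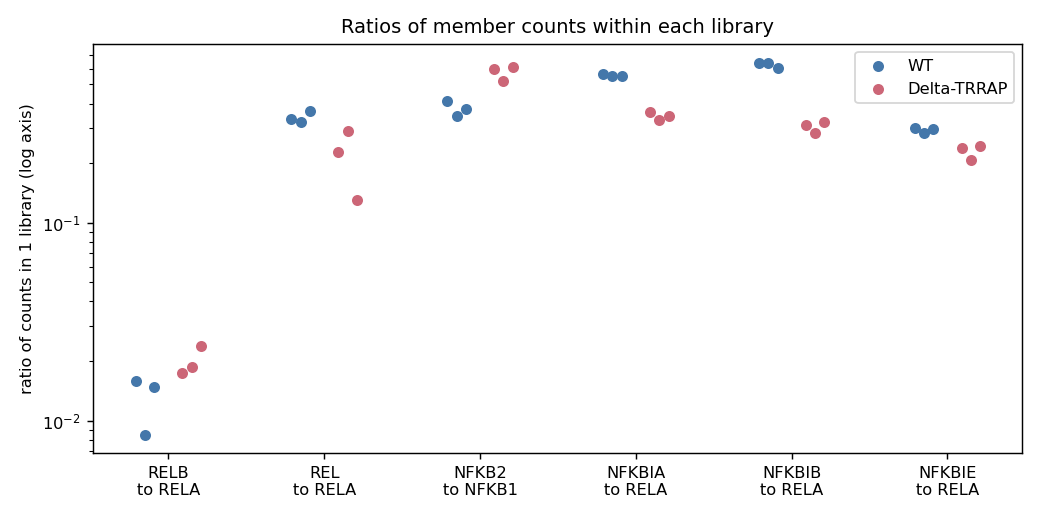
Ratios of raw counts inside each library (y axis, log scale) for 6 pairs of NF-κB genes, with WT and Delta-TRRAP libraries as points. The IκB to RELA ratios sit lower in Delta-TRRAP and the NFKB2 to NFKB1 ratio sits higher, with no overlap between groups for any of the 6 pairs.

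NFKBIB lay among neighbours that were mostly lower in Delta-TRRAP. It had 125 tested genes within 2.5 Mb on chromosome 19, with a median log2 fold change of −0.28 (quartiles −0.63 and 0.29), and 65.6% were below 0. Within 1 Mb the median of its 48 neighbours was −0.45 and 81.2% were below 0, with 14 called lower and 3 higher. NFKBIB itself, at −0.99, lay below the lower quartile of the wider window and just above that of the narrower one, −1.04.

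RELB lies on the same chromosome. Within 2.5 Mb its 134 neighbours had a median of −0.17 and an upper quartile of 0.40, with 14 called higher and 17 lower, and RELB stood at 0.68. BIRC3 had 12 tested neighbours, 2 called higher and 1 lower, with a median of −0.23 and an upper quartile of 1.10. For RELA, REL, NFKB1, NFKB2, NFKBIA and NFKBIE the medians lay between −0.07 and 0.14. The 24 neighbours of TNFAIP3 had a median of 0.39, with 7 called higher and 2 lower. With windows of 1 or 5 Mb the median around BIRC3 was 0.30 or −0.03, and the medians around RELA, REL, NFKB1 and NFKB2, which changed sign between windows, stayed within −0.13 to 0.17. The neighbours were described without a test, and their part in any member's change was not tested.

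**Figure D4:**
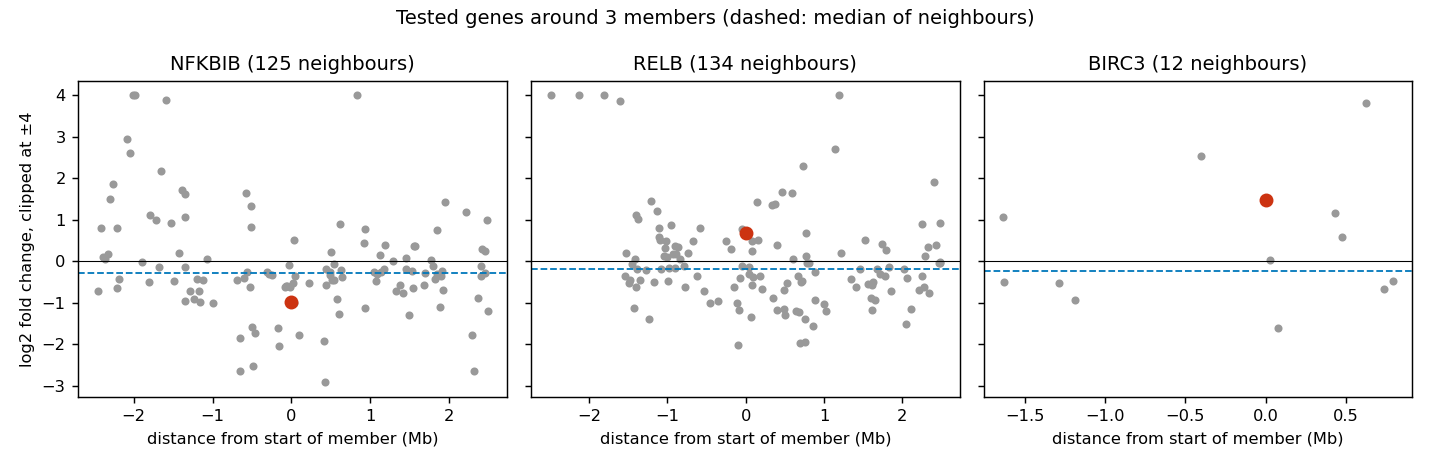
Log2 fold change, Delta-TRRAP over WT (y axis, clipped at 4 in either direction), of tested genes by distance in Mb from the start of NFKBIB, RELB and BIRC3 (x axis); the red point is the member and the dashed line the median of its neighbours. Points near NFKBIB lie mostly below 0 (81.2% within 1 Mb), and RELB lies above the median of its neighbours, −0.17.

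The rest of the pathway was described by lists of its other parts. Of 64 genes in 6 lists, from atypical IκB genes to ligands, 55 were tested. Of these 7 were called higher and 3 lower, or 18.2% called, against 22.5% of all tested genes. Of the 7, 4 had a WT mean under 5, so they reached the minimum for testing through the Delta-TRRAP libraries, where they are high, and nothing is read from these counts. Without regard to fold 18 passed higher and 25 lower, where 58.6% of all tested genes passed and 28.9% passed lower. The atypical IκB genes, nuclear cofactors of NF-κB, had 1 of 3 called, lower: NFKBID, with normalized counts of 122, 113 and 106 in WT and 46.9, 37.2 and 63.4 in Delta-TRRAP. The log2 fold change of NFKBID was −1.21 ± 0.17 (SE; adjusted p 1.36e-05, edgeR). NFKBIZ, the most abundant of them, fell by 0.61 on the log2 scale (adjusted p 2.59e-05, edgeR).

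None of the 10 genes for IκB kinases, upstream kinases and their adaptor or regulatory subunits was called, against 22.5% of all tested genes. Without regard to fold 7 passed the adjusted p lower (70%) and 1 higher, with a median log2 fold change of −0.21. Of all tested genes 58.6% passed and 28.9% passed lower. MAP3K7, which encodes the kinase TAK1 upstream of the IκB kinase complex, stood at −0.21 ± 0.05 (SE; adjusted p 0.000941, edgeR). Its adaptor TAB2 was the one that rose, by 0.75 ± 0.05 on the log2 scale (SE; adjusted p 7.85e-09, edgeR). Members of this list chosen after their values were seen were the catalytic IKK subunits CHUK, at −0.27 (adjusted p 0.000129, edgeR), and IKBKB, at −0.21 (adjusted p 0.00296, edgeR). IKBKG, the regulatory subunit, stood at −0.05 and did not pass (adjusted p 0.576, edgeR).

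Of the 15 adaptor and ubiquitin ligase genes 5 passed the adjusted p higher and 6 lower. The 6 were 40%, against 28.9% of all tested genes. Only 1 was called (6.67%, against 22.5% of all tested genes). This was TRAF5, an adaptor of TNF family receptors, which fell from 649 ± 24.8 to 239 ± 16.9 normalized counts (SD, n = 3; log2 −1.44 ± 0.08 SE, adjusted p 2.38e-10, edgeR). IRAK1, the most abundant of the list and a kinase of the interleukin-1 receptor branch, fell by 0.49 on the log2 scale (adjusted p 1.05e-06, edgeR). Among 11 other negative regulators 1 was called (9.09%), TNIP1, a ubiquitin-binding partner of A20. Its normalized counts were 1130, 1149 and 1162 in WT and 2456, 2492 and 2434 in Delta-TRRAP, a rise of 1.10 ± 0.05 on the log2 scale (SE; adjusted p 3.01e-11, edgeR). The abundant regulators ITCH and TAX1BP1 of that list fell by 0.52 (adjusted p 3.13e-07, edgeR) and by 0.18 (adjusted p 0.0067, edgeR) on the log2 scale.

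Among receptors, IL1R1 rose while the most abundant receptor genes fell. Of 15 receptor genes 12 were tested and 3 called higher (25%, against 16.2% of all tested genes). IL1R1, the signalling receptor of interleukin-1, had normalized counts of 61.5, 55.0 and 65.7 in WT and 676, 739 and 672 in Delta-TRRAP, an 11.5-fold rise (log2 3.52 ± 0.10 SE, adjusted p 1.35e-13, edgeR). The other 2 called receptors, TNFRSF11A and TLR3, named here after their values were seen, had WT means under 5 and were tested through their Delta-TRRAP level, 20.2 ± 1.70 and 13.9 ± 3.22 normalized counts (SD, n = 3). By contrast the abundant receptors TNFRSF1B and LTBR fell by 0.74 (adjusted p 4.78e-09, edgeR) and 0.37 (adjusted p 2.07e-05, edgeR) on the log2 scale. Only 4 of 10 ligand genes reached the minimum count, TNFSF13B, IL1A, TNFSF14 and IL1B. TNFSF14 and IL1B, named after their values were seen, had WT means under 5 and reached it through Delta-TRRAP, at 26.5 ± 2.11 and 11.1 ± 5.05 normalized counts (SD, n = 3), and IL1B had no count in WT. TNFSF13B, which encodes the B-cell survival factor BAFF, fell from 281 ± 32.3 to 40.8 ± 11.4 normalized counts (SD, n = 3; log2 −2.79 ± 0.16 SE, adjusted p 4.76e-10, edgeR). IL1A, which encodes a ligand of IL1R1, rose from 15.7 ± 3.58 to 50.8 ± 3.54 (SD, n = 3; log2 1.68 ± 0.22 SE, adjusted p 7.17e-06, edgeR). TNF and TNFSF11 had no count in any library.

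**Figure D5:**
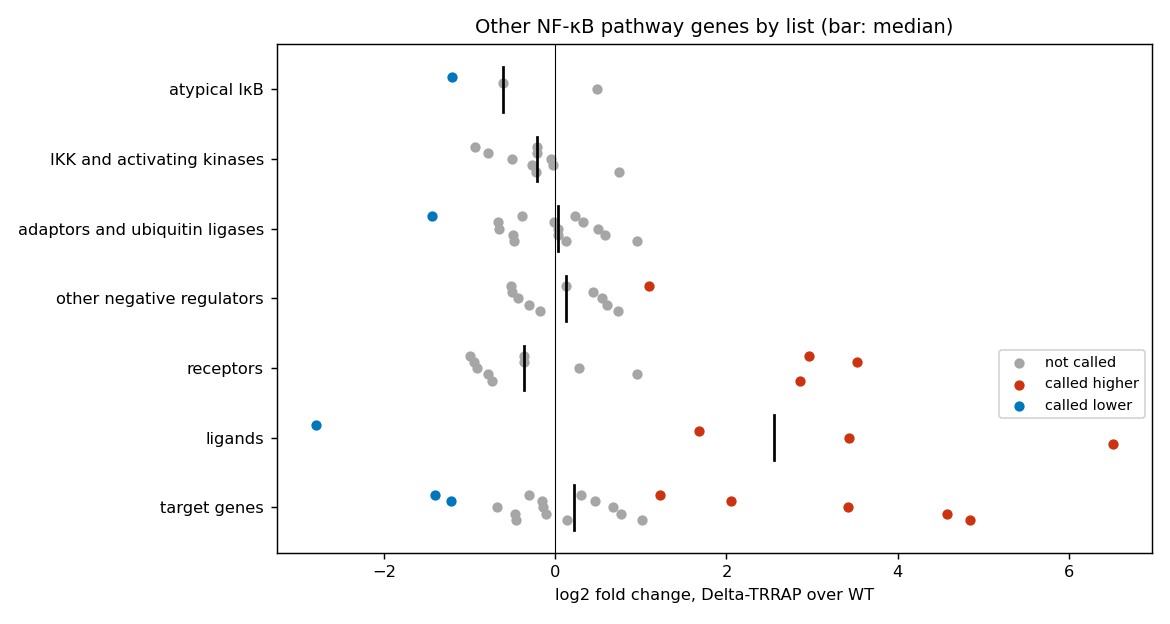
Log2 fold change, Delta-TRRAP over WT (x axis), of each tested gene in the 6 other pathway lists and the target list (rows); coloured points were called and black bars are list medians. Kinases and adaptors cluster within 1.5 log2 units of 0, while IL1R1 at 3.52, TNFSF13B at −2.79 and CCL2 at 4.84 lie far out; the point farthest right is IL1B, which had no count in WT, so its position depends on the prior count of the fit.

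Commonly cited NF-κB target genes did not move one way. Of 26 listed 20 were tested. Of these 5 were called higher and 2 lower, 35% of those tested, against 22.5% of all tested genes (16.2% higher and 6.34% lower). Of the 5, CXCL10 and PTGS2, named after their values were seen, had WT means under 5 and were tested through their Delta-TRRAP level, 12.1 ± 4.31 and 19.0 ± 3.71 normalized counts (SD, n = 3). The other 3 were CCL2, IL6 and CXCL8. CCL2, a chemokine that draws monocytes, had normalized counts of 24.6, 11.6 and 17.4 in WT and 514, 471 and 551 in Delta-TRRAP (log2 4.84 ± 0.16 SE, adjusted p 8.48e-13, edgeR). IL6 had 53.3, 38.6 and 30.8 against 159, 156 and 196 (log2 2.05 ± 0.17 SE, adjusted p 5.02e-08, edgeR). CXCL8, the neutrophil chemokine interleukin-8, had 321, 355 and 253 against 814, 662 and 692 (log2 1.22 ± 0.11 SE, adjusted p 7.78e-08, edgeR). For all 3 the groups were far apart.

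The targets called lower were PLAU and TAP1. PLAU, the urokinase plasminogen activator, fell from 440 ± 27.2 to 167 ± 4.65 normalized counts (SD, n = 3; log2 −1.40 ± 0.09 SE, adjusted p 1.17e-09, edgeR). TAP1, the peptide transporter of antigen presentation, fell from 465 ± 35.9 to 200 ± 7.57 (SD, n = 3; log2 −1.22 ± 0.09 SE, adjusted p 5.89e-09, edgeR). The most abundant targets moved less: the survival gene BCL2L1 fell by 0.31 on the log2 scale (adjusted p 3.93e-05, edgeR), and SOD2, the mitochondrial superoxide dismutase, stood at −0.11 (adjusted p 0.0702, edgeR). Of the 21 targets with a listed promoter, tested or not, 13 held an exact match to the κB motif. The same held for 13.3% of all genes with a listed promoter and for 16.9% of the tested ones. IL6 and TAP1 were among the 13. CXCL8 and PLAU held no exact match, but κB sites that depart from the motif were not counted, so this does not show that they lack one.

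A few markers of other cell types differed between the groups, and the others tested did not pass the adjusted p. The share called was 60% of tested fibroblast markers and 25% each of tested monocyte and lymphoid markers. Of all tested genes 22.5% were called, 16.2% higher and 6.34% lower, and nothing is read from these counts. Of 7 fibroblast markers 5 were tested and 3 called higher, each with a WT mean under 5, and the summed level ranged over 35.9 to 57.5 normalized counts in WT libraries and 926 to 970 in the others. In Delta-TRRAP nearly all of it was COL1A2, at 1.63 ± 2.0 and 868 ± 36.1 (SD, n = 3), and LUM had no count. COL1A1 (log2 fold change 0.04) and DCN (−0.43) did not pass the test. Of 5 monocyte markers 4 were tested and 1 was called, LYZ, lower, so that the summed level ranged over 8125 to 8896 in WT libraries and 893 to 963 in the others. Of 8 lymphoid markers 4 were tested and 1 was called lower, and their sum ranged over 521 to 543 in WT libraries and 429 to 469 in the others. Their part in the changes of BIRC3, the IκB genes and the targets was not tested.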

How the data were processed

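Poly(A) RNA of 3 WT and 3 Delta-TRRAP libraries was analysed, and groups and replicate numbers came from the sample titles. The authors deposited raw counts per gene, made by aligning reads to hg38 with STAR, keeping unique mappers and counting with HTSeq 2.0.2 (reverse strand, union mode, GENCODE release 32). Discarding multi-mapping and shared reads lowers counts of overlapping genes. Not used were the authors' table of normalized values, in which 3 of 9 columns match none of these samples, and their table of fold changes and p-values for the comparison.

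Counts were fitted with edgeR 4.0.16 (R 4.3.3; TMM, quasi-likelihood F test, group as the only term) for the 19114 genes whose normalized counts averaged 5 or more, of 34998 with a count. To normalize, each library's counts were divided by its effective (TMM) size over the geometric mean of those sizes. Benjamini-Hochberg adjustment ran over all tested genes. Thresholds (adjusted p 0.01, 2-fold) follow the study's methods, which used DESeq2. The fit was tested on simulated data. WT totals ran from 39966818 to 42616061 counts, Delta-TRRAP totals from 35076835 to 38491513. No 2 libraries of a group agreed within sampling noise (chi-square per gene 4.93 to 15.53); pairs across groups were not compared. P-values cover the spread between cultures of 1 clone.

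Positions and lengths came from GENCODE release 44 on GRCh38. Members and gene lists were chosen with earlier results of these data known. All members were named. From the other lists, genes called with a mean of at least 20 were named, up to 8 per list, plus the 2 most abundant of each. Alternatives were DESeq2 1.42.0, limma-voom (limma 3.58.1), RLE, upper-quartile and library-size scaling, no filter, a minimum mean of 50, a 1.5-fold threshold, a replicate block, and leaving out each library. TMM after the filter, exon-union lengths and the unshared REL length were added after seeing the data. Matched replicate numbers did not deviate together (correlations −0.007, −0.024 and −0.016).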

Additional observations from a re-analysis of the deposited data

How the results depend on the processing

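No member's log2 fold change turned its direction in these alternatives. Of all genes, 4307 were called, against 1969 with a minimum mean of 50 and 6802 at a 1.5-fold threshold. With the minimum mean of 50, 3 target genes and 2 other pathway genes were called higher. At 1.5-fold, 3 members were called lower, and 12 other pathway genes were called higher and 12 lower. Leaving out 1 library at a time gave 0 to 1 members called lower, the 1 being NFKBIB, and 3 to 5 other pathway genes called lower. With the replicate block, 4218 genes were called, with 1 member higher, 0 lower and 6 past the adjusted p, so the block changed no member's call. The replicate numbers do not pair the libraries.

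Members past the adjusted p numbered 6, and 5 with DESeq2 or the minimum mean of 50, 7 with no filter, 8 with library-size scaling and 5 to 7 when 1 library was left out. REL no longer passed the adjusted p in 7 of 15 alternatives, with adjusted p up to 0.108, and ranged from −0.88 (without Delta-TRRAP replicate 2) to −0.35 (without Delta-TRRAP replicate 3). Under library-size scaling REL was −0.45 (adjusted p 0.0362, edgeR) and NFKBIE was −0.15, while RELA (0.21), TNFAIP3 (0.23), NFKB2 (0.35) and RELB (0.84) passed; the median of all genes had shifted by 0.162. RELB, at 17.4 to 49.6 normalized counts, passed with no filter (adjusted p 0.00714, edgeR).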
